A study of Homo sapiens with 204 samples.

Results

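The genes described here are the nuclear genes for the proteins of the mitochondrial ribosome. They were taken as every gene present in both deposited count tables whose symbol is MRPL or MRPS followed by a number and, in some cases, a letter, with pseudogenes left out. This rule gave 78 of the 18263 genes that the tables share, 49 with an MRPL and 29 with an MRPS symbol. By the subunit that holds the protein, 51 were listed under the large mitochondrial subunit and 27 under the small one, because MRPS30 and MRPS18A sit in the large one. The 27 hold MRPS36, which the rule takes by its symbol but which RefSeq names KGD4, a part of the oxoglutarate dehydrogenase complex and not of the ribosome. Symbols for 37 MRP pseudogenes in the mRNA table were left out, and no measured value was used to choose the members.

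The study knocked down the proteins of the other ribosome of the cell, the cytosolic one, in A549 cells, an established human lung carcinoma line. Each of 75 genes, 44 for the large and 31 for the small cytosolic subunit, was silenced with 40 nM siRNA for 24 h, and non-targeting siRNA was the control. Every lysate was divided for sequencing of total RNA and for ribosome profiling, in which the mRNA fragments covered by ribosomes (footprints) are sequenced. There are 91 knockdown and 11 control libraries in each assay. Titles with a library number cover 16 targets with 2 libraries each and 6 controls, and titles without one cover 59 targets with 1 library each and 5 controls; each target was set against the controls of its own kind of title. Each target was silenced with 1 siRNA reagent, so an effect of the reagent cannot be told apart from an effect of the lost protein. Every p-value rests on how far these libraries differ among themselves, and part of that spread may be technical.

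Mitochondria keep a ribosome of their own, made of RNA encoded in mitochondrial DNA and of proteins encoded in the nucleus. Those proteins are made by cytosolic ribosomes, imported, and assembled with the mitochondrial ribosomal RNAs. The particle translates only the few membrane proteins of the respiratory chain that mitochondrial DNA still encodes. Some of its proteins have counterparts in bacteria and others are specific to mitochondria. Cytosolic ribosomal protein mRNAs carry a pyrimidine tract at the 5′ end that ties their translation to growth signals.

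The deposited counts summed to 18.8 M to 63.6 M reads per mRNA library (median 27.8 M) and 7.77 M to 57.2 M per footprint library (median 23.8 M). Targeted mRNA could be measured for 72 of the 75 targets and was more than 2-fold lower in all 72, with a median log2 ratio of −4.56. All 6 epithelial genes listed for this line were present in every library (KRT8 mRNA median 1296 CPM, that is, counts scaled to the library total), and in mRNA the blood, endothelial and fibroblast markers PTPRC, PECAM1, VWF and COL3A1 were at or near 0, while COL1A1 had a median of 18.8 CPM. All 78 members passed the low-count filter in both assays, and the lowest member count in any library was 21 for mRNA and 182 for footprints. Member levels in controls ran from 8.27 CPM for MRPS31 to 171.5 CPM for MRPS16 in mRNA, not scaled by transcript length, with a median of 44.3 CPM, and the median in footprints was 98.9 CPM. Counts are shares of a library, so fewer cells with a transcript and less of it per cell cannot be told apart.

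The mitochondrial ribosomal protein genes as a group stayed close to their control level while the cytosolic ones moved by subunit. For each target the log2 ratio of every gene to the mean of its controls was computed from CPM scaled by TMM, a trimmed mean that puts libraries on 1 level, and the median over the 78 members was taken. Over the 75 targets this member median had a middle value of −0.00 in mRNA, −0.05 in footprints and −0.03 in translation efficiency (TE), the footprint ratio minus the mRNA ratio. The single values ran from −0.21 to 0.22 in mRNA, from −0.19 to 0.16 in footprints and from −0.23 to 0.13 in TE. Control libraries measured the same way spanned −0.21 to 0.35 in mRNA, −0.17 to 0.09 in footprints and −0.38 to 0.19 in TE. Against all 11 controls no target lay outside in mRNA or TE, while in footprints 2 lay below and 5 above. The wide mRNA span was that of the 6 numbered controls, since the 5 unnumbered ones spanned only −0.05 to 0.07. Against controls of the same kind of title, 12 of the 59 unnumbered targets lay below and 9 above in mRNA, 1 below and 5 above in footprints, and 2 below and 4 above in TE. Of the 16 numbered targets 0 lay outside in mRNA and TE, and in footprints 9 lay below their controls (−0.09 to 0.07) and 0 above. With only 5 or 6 controls, targets can often lie outside the control span without any effect of the knockdown, so these counts are not calls. The 2 libraries of 1 target differed little, with a typical SD of 0.02 in mRNA and footprints and 0.03 in TE.

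Among the lowest mRNA member medians were those with RPS16 (−0.16), RPL29 (−0.15) and RPL21 (−0.14) depleted. By the runs of columns in the tables, the RPS16 libraries belong to other runs than the rest of the numbered targets, and against controls of their own runs the RPS16 median was 0.01. All 3 targets have numbered titles and share their 6 controls, of which the library named 20_2 was the highest of all at 0.35. The highest mRNA medians followed knockdown of RPL8 (0.22), RPL11 (0.13), RPLP2 (0.12) and RPL5 (0.12). RPL5 and RPL11 are the cytosolic proteins that form a particle with 5S ribosomal RNA and bind MDM2 when free. In footprints the lowest were RPS15 (−0.19), RPL7 (−0.17), RPS4X (−0.16) and RPS27 (−0.14), and the highest were RPL23 (0.16), RPLP0 (0.15), RPL11 (0.12) and RPL37 (0.10). In TE the low values included RPL7 (−0.23), RPL4 (−0.19) and RPL8 (−0.16), and the highest RPL37 (0.13), RPL28 (0.13), RPL23 (0.12) and RPS3 (0.11). Those of RPL7, RPL4, RPL37, RPL28 and RPL23 lie outside the span of their own unnumbered controls in TE (−0.19 to 0.10). That span rests on 5 libraries, so lying outside it is not a call.

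Cytosolic ribosomal protein genes, with the targeted gene left out, showed a split between large- and small-subunit targets. Their median was 0.13 in mRNA after knockdown of large-subunit proteins and −0.20 after knockdown of small-subunit proteins. In footprints the order was the opposite, −0.40 for large- and 0.12 for small-subunit targets, and in TE it was −0.53 and 0.37. Over the same targets the mitochondrial members had 0.02 and −0.02 in mRNA, −0.01 and −0.08 in footprints, and −0.02 and −0.03 in TE. The plot of medians by target shows the cytosolic points parting by subunit while the mitochondrial points lie along 0.

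**Figure D1:**
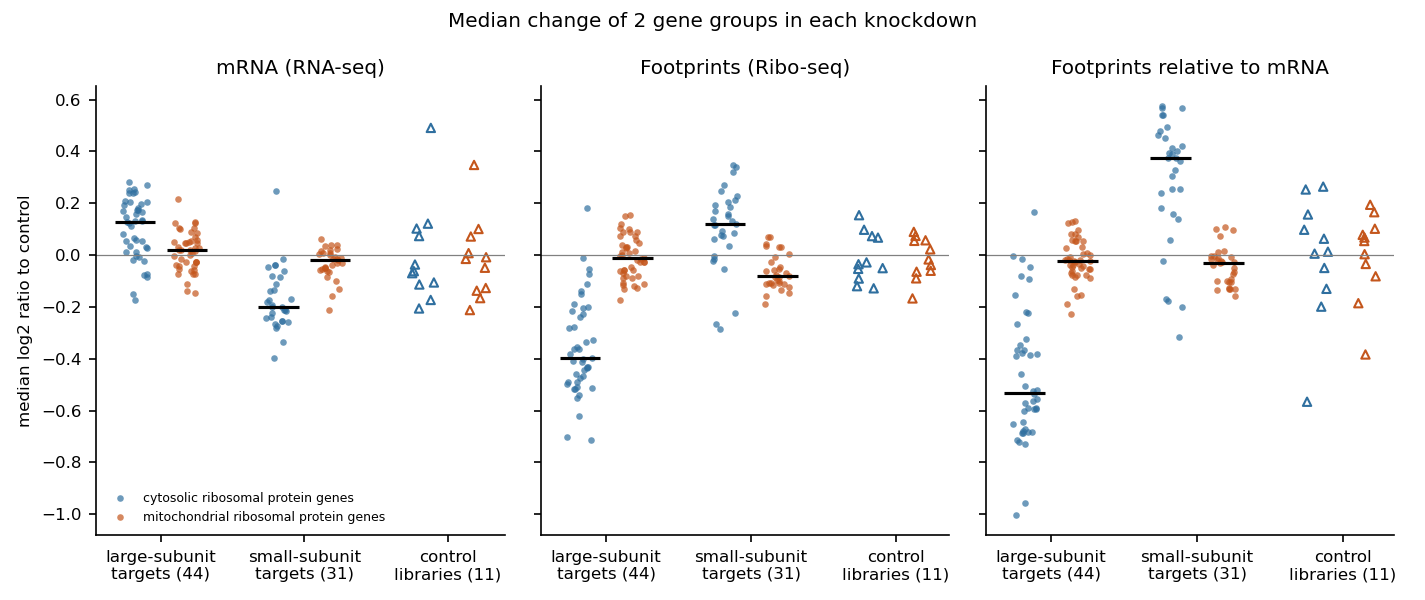
Median log2 ratio to control (vertical) over mitochondrial and over cytosolic ribosomal protein genes, with 1 filled point per target by subunit, a black line at the median of the points and 1 open triangle per control library, in mRNA, footprints and TE. Member medians of the targets stay between −0.23 and 0.22, a narrower range than that of the cytosolic medians in each panel.

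The summed level gave the same picture. In controls with numbered titles the members together made up 0.396% of mRNA counts at the median, and in the matching knockdowns 0.402%. Controls without numbers had 0.408% and their knockdowns 0.402%. Members took a larger share of footprints, 0.839% in numbered controls against 0.804% in numbered knockdowns, and 0.874% against 0.886% without numbers.

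The spread of a member over targets was small beside that of genes of like level, given as a description with no test. The SD of a member's log2 ratio over the 75 targets had a median of 0.22 in mRNA, 0.25 in footprints and 0.22 in TE. The 6236 genes of like level had 0.29, 0.35 and 0.27, and the cytosolic ribosomal protein genes 0.26, 0.44 and 0.55. A gene's level here is the lower of its mean mRNA and mean footprint CPM over all libraries. Like level means within the members' range of that value without its tails. Symbols beginning with RPL, RPS or FAU were left out. Between the 2 libraries of a target the members' median SD was 0.10 in mRNA, 0.11 in footprints and 0.15 in TE. MRPL22, whose protein lines the peptide exit tunnel, had the smallest mRNA spread (SD 0.13) around a median above 0 (0.29). Its mRNA ratio was above 0 for 73 of 75 targets, and reached 0.62 with RPL8 depleted. MRPL34, a large-subunit protein with a bacterial counterpart, had the widest spread in both assays (SD 0.39 in mRNA and 0.40 in footprints), and MRPS6, a small-subunit protein, came next in footprints (0.40).

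**Figure D2:**
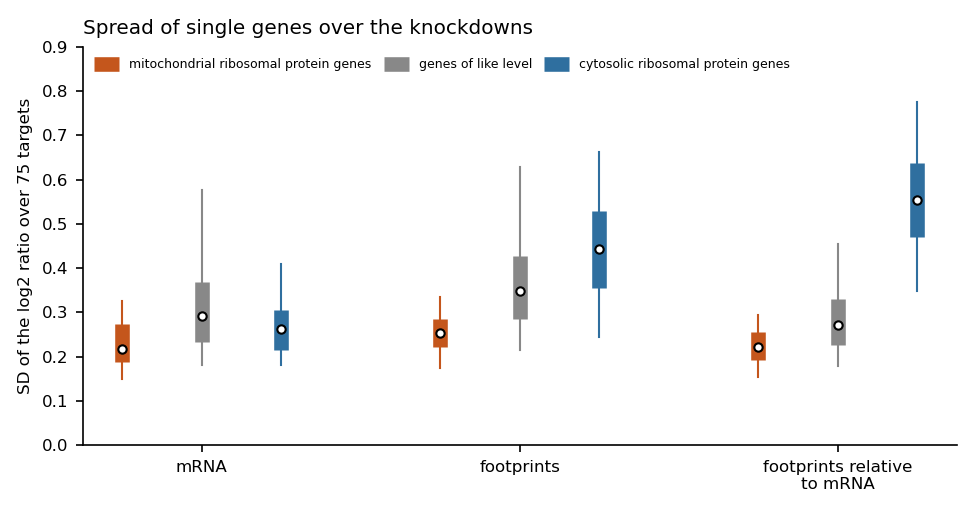
SD of the log2 ratio over the 75 targets (vertical) for mitochondrial ribosomal protein genes, genes of like level and cytosolic ribosomal protein genes, in mRNA, footprints and TE; dots are medians over genes, thick bars the middle range from the 25th to the 75th percentile and thin lines that from the 5th to the 95th. The member median (0.22, 0.25 and 0.22) is the lowest of the 3 groups in each assay.

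Pooling all knockdowns against all controls asks whether loss of cytosolic ribosomal proteins in general moved a member. In this fit and in that between subunits each library counted as a replicate of its own. The 2 libraries of a numbered target thus counted as independent, although they differed less than targets did. The p-values of both fits may be too small for that reason. In mRNA 8 members rose, where 13.4% of all genes did, and 14 fell, where 17.2% of all genes did (edgeR quasi-likelihood test over 15526 genes, Benjamini-Hochberg adjusted p at 0.05). These counts are near the background, and the member median was −0.02 beside −0.03 for all genes. Members with a bacterial counterpart gave 4 higher and 10 lower of 45, and mitochondria-specific members 4 higher and 3 lower of 29.

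MRPL34 fell most. Its mRNA had 27.2, 28.7 and 35.5 CPM (lowest, median, highest) in numbered controls against 7.72, 20.96 and 27.04 CPM in numbered knockdowns, so these groups did not overlap. Without numbers it had 20.1, 24.5 and 26.8 CPM in controls and 7.29, 20.7 and 30.8 CPM in knockdowns, which do overlap. The fitted log2 fold change was −0.40 ± 0.11 (SE, adjusted p 0.00224).

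MRPS12, a protein of the decoding centre, fell by 0.37 on the log2 scale (SE 0.08, adjusted p 0.000169). Its mRNA had 83.6, 107 and 186 CPM in numbered controls and 52.2, 80.9 and 109 CPM in numbered knockdowns, then 79.2, 94.0 and 108 CPM and 47.5, 81.4 and 110 CPM without numbers. The groups overlap in both kinds of title. MRPL14, a large-subunit protein at the interface between subunits, fell by 0.36 (SE 0.07, adjusted p 1.04e-05). It had 29.5, 41.5 and 71.1 CPM in numbered controls and 24.6, 32.8 and 46.6 CPM in numbered knockdowns, and 30.5, 36.5 and 37.98 CPM against 22.3, 28.5 and 35.8 CPM without numbers. MRPS2, of the small subunit, fell by 0.34 (SE 0.07, adjusted p 5.28e-05). MRPS25, a mitochondria-specific small-subunit protein, fell by 0.30 (SE 0.08, adjusted p 0.0014), and MRPL12, the stalk protein that recruits translation factors, fell by 0.30 (SE 0.07, adjusted p 0.000941). The other 8 that fell, MRPL55, MRPS26, MRPL11, MRPL17, MRPS17, MRPL20, MRPL38 and MRPS24, had log2 fold changes between −0.27 and −0.15.

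Of those that rose in mRNA, MRPL39, a mitochondria-specific large-subunit protein, had the largest change (0.39 ± 0.10 SE, adjusted p 0.00135). Its mRNA had 20.6, 26.8 and 31.2 CPM in numbered controls against 22.3, 32.2 and 48.9 CPM in knockdowns, and 24.2, 26.6 and 29.5 CPM against 20.6, 34.9 and 63.6 CPM without numbers. The knockdown ranges contain most of the control range. MRPL58, a peptidyl-tRNA hydrolase built into the large subunit that can release stalled chains, rose by 0.33 (SE 0.08, adjusted p 0.000415). It had 31.3, 33.2 and 51.5 CPM in numbered controls and 23.2, 49.5 and 59.5 CPM in knockdowns, and 29.01, 32.1 and 38.3 CPM against 26.6, 39.3 and 47.9 CPM without numbers. MRPL22 rose by 0.27 (SE 0.05, adjusted p 1.69e-05), with 25.8, 27.3 and 27.9 CPM in unnumbered controls against 27.2, 33.1 and 42.1 CPM in knockdowns, and 25.1, 28.6 and 40.8 CPM against 28.8, 38.2 and 46.4 CPM with numbers. Smaller rises were seen for MRPS9 (0.27), MRPS34 (0.24), MRPL13 (0.23), MRPL40 (0.22) and MRPL47 (0.22). All 22 mRNA calls had the same sign when each kind of title was fitted alone, which their choice from a fit over both kinds makes likely. At that size only 6 passed among numbered libraries, where 986 of all 14834 genes rose and 883 fell. Among unnumbered libraries 5 passed, where 1154 of all 15255 genes rose and 938 fell, and 3 passed in both (MRPL14, MRPL39 and MRPL58).

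In footprints 6 members rose (13.2% of all genes did) and 14 fell (13.5% of all genes did), with a member median of −0.05 beside −0.00 for all 12793 genes tested. MRPS17, a small-subunit protein that contacts the ribosomal RNA, fell by 0.44 (SE 0.09, adjusted p 7.19e-05). Its footprints had 43.5, 51.0 and 91.9 CPM in numbered controls and 30.2, 40.0 and 81.5 CPM in knockdowns, and 66.2, 102 and 109 CPM against 47.2, 76.3 and 99.0 CPM without numbers. MRPL34 fell by 0.41 (SE 0.11, adjusted p 0.00317), with 41.2, 50.1 and 61.2 CPM in numbered controls against 12.7, 35.4 and 48.4 CPM. MRPS2 fell by 0.38 (SE 0.10, adjusted p 0.00173), with 95.04, 124 and 141 CPM in numbered controls against 69.2, 89.3 and 143 CPM. All these groups overlap. MRPL11, part of the factor-binding region, fell by 0.28, MRPS26, a mitochondria-specific small-subunit protein, by 0.26, and MRPS12 by 0.25. The other 8 that fell were MRPL12, MRPL51, MRPL20, MRPL17, MRPL14, MRPL37, MRPL32 and MRPS24, between −0.25 and −0.20.

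MRPL22 footprints rose most (0.30 ± 0.07 SE, adjusted p 0.000413), with 85.8, 91.5 and 127 CPM in numbered controls against 90.3, 132 and 175 CPM in knockdowns. MRPL58 followed (0.28 ± 0.08 SE, adjusted p 0.0032), with 93.0, 108 and 119 CPM against 66.4, 137 and 169 CPM. The control and knockdown ranges of both genes overlap. MRPL28, MRPL40, MRPL2 and MRPL24, all large-subunit proteins, rose by 0.22, 0.21, 0.18 and 0.14. All 20 footprint calls kept their sign in each kind of title, which their choice from a fit over both kinds makes likely. Among numbered libraries alone 11 passed in the same direction, where 1239 of all 12321 genes rose and 1126 fell. Among unnumbered libraries alone 0 passed, where 511 of all 12587 genes rose and 253 fell. None of the 27 small-subunit members rose in footprints and 5 fell. Both assays called 14 members in the same direction, where MRPL22, MRPL40 and MRPL58 rose and the other 11 fell. The 14 are 63.6% of the members' mRNA calls and 70.0% of their footprint calls, close to the shares over all 12480 genes tested in both assays (59.9% and 67.7%). The plot of mRNA against footprint fold changes shows the called members spread along the diagonal.

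**Figure D3:**
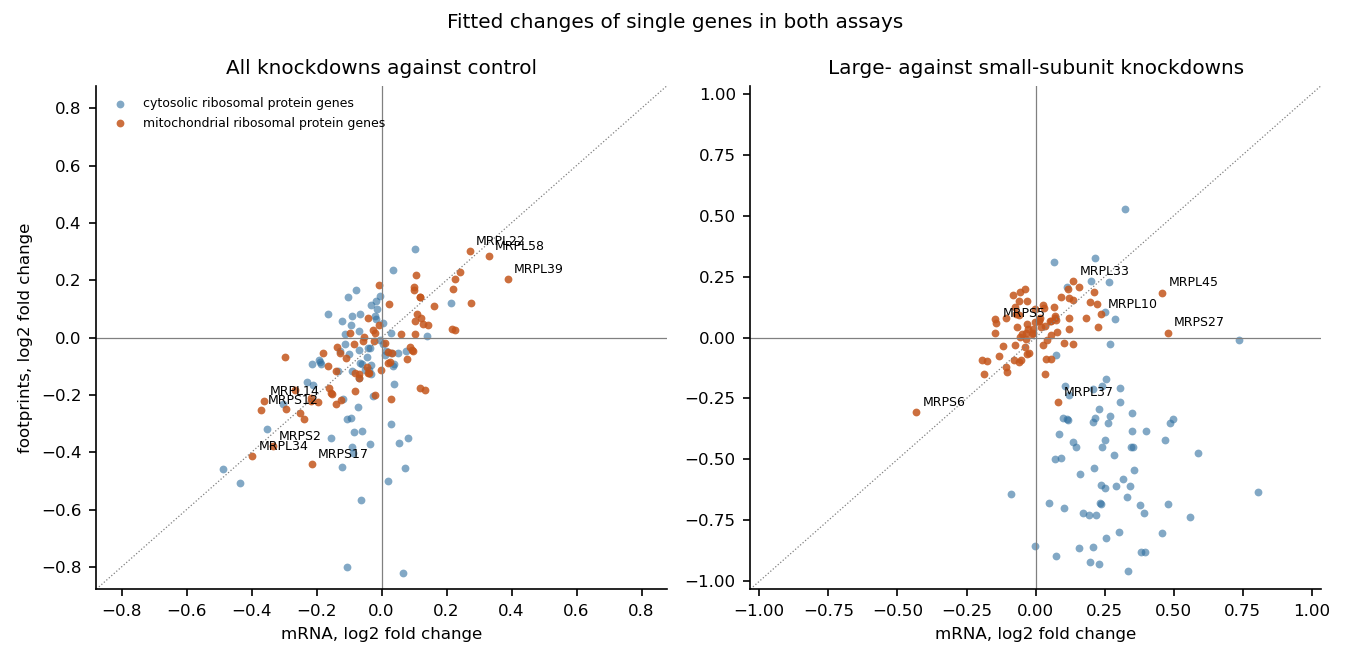
Fitted log2 fold change in mRNA (horizontal) and footprints (vertical) of each mitochondrial and cytosolic ribosomal protein gene, for all knockdowns against control (left) and large- against small-subunit targets (right); the dotted line marks equal change. On the left 59 of 78 members have the same sign in both assays, and on the right MRPS27 and MRPL45 lie below the line.

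TE changed for 0 members in the edgeR fit of assay by knockdown, where 0.433% of all genes were called higher and 0.024% lower. At an unadjusted p under 0.05 there were 5 (5.26% of all genes were), with MRPL33 (−0.29), MRPS10 (−0.32), MRPL32 (−0.24) and MRPS17 (−0.23) below 0 and MRPS25 (0.23) above. The labels' protocol says that both libraries of a pair come from 1 lysate. With the lysate as a replicate block, by limma on log2 ratios, 1 member was called higher (1.77% of all genes) and 1 lower (0.929% of all genes). MRPL33 had a TE log2 fold change of −0.28 ± 0.08 (SE, adjusted p 0.0452) and MRPS25 one of 0.23 ± 0.06 (SE, adjusted p 0.0243).

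Setting large- against small-subunit targets asks whether the cytosolic subunit that was hit mattered to a member, and it parted a few of them. In mRNA 12 members were higher with large-subunit targets, where 15.2% of all genes were, and 9 were lower, where 16.4% of all genes were. Of the 79 cytosolic ribosomal protein genes, 50 were higher in the same fit, with a median log2 difference of 0.25.

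MRPS27, a pentatricopeptide-repeat protein of the small mitochondrial subunit, showed the largest difference. Among the 40 large-subunit targets with unnumbered titles its mRNA log2 ratio to control had a lowest value of −0.23, a median of 0.29 and a highest of 0.57, and 34 were above 0. Among the 19 small-subunit targets the values were −1.09, −0.18 and 0.12, and 3 were above 0. In the numbered libraries the 4 large-subunit targets had 0.18, 0.43 and 0.59, and the 12 small-subunit targets −0.81, −0.04 and 0.25. So the groups overlap, but with medians apart in the same direction in both kinds of title. The fitted difference was 0.48 ± 0.05 (SE, adjusted p 2.58e-13). RPL15 knockdown gives a case with replicates: MRPS27 mRNA had 191 and 183 CPM against 114, 122 and 143 CPM in controls (log2 fold change 0.59 ± 0.09 SE, adjusted p 5.24e-06), and its footprints 134 and 139 CPM against 113, 128 and 181 CPM (−0.03 ± 0.13 SE, adjusted p 0.873).

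MRPL45, the protein at the tunnel exit that anchors the mitochondrial ribosome to the inner membrane, did likewise in mRNA. Its unnumbered mRNA ratios had a lowest of −0.38, a median of 0.29 and a highest of 0.56 for large-subunit targets, with 38 of 40 above 0. For small-subunit targets they had −1.31, −0.12 and 0.10, with 3 of 19 above 0. The fitted difference was 0.46 ± 0.04 (SE, adjusted p 4.13e-15). The other 4 with the largest positive differences were MRPL10, at the base of the stalk, with 0.24 ± 0.05 (SE, adjusted p 4.7e-05), MRPS18B (0.22), MRPL39 (0.22) and MRPL27 (0.21).

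MRPS6 went the other way. Its unnumbered mRNA ratios had −1.02, −0.38 and 0.20 for large-subunit targets, with 5 of 40 above 0, and −0.65, −0.02 and 0.53 for small-subunit targets, with 8 of 19 above 0. The fitted difference was −0.43 ± 0.06 (SE, adjusted p 1.96e-08) in mRNA and −0.31 ± 0.08 (SE, adjusted p 0.00143) in footprints. MRPL47 (−0.20), MRPL55 (−0.19), MRPL17 (−0.17), MRPS18C (−0.15) and MRPS34 (−0.15) were also lower in mRNA with large-subunit targets. Of the 21 mRNA calls 18 had the same sign in both kinds of title, which their choice from a fit over both makes likely. MRPL39, MRPS17 and MRPS21 did not. With numbered libraries alone MRPL39 had −0.03, and 5 of the members passed, where 1052 of all 14834 genes were higher and 1135 lower.

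In footprints 11 members were higher with large-subunit targets (10.9% of all genes) and 4 were lower (11.2% of all genes). This balance turned with the kind of title, and 0 of the 15 were called in both. Among numbered libraries alone 1 was higher and 8 lower, where 874 and 1024 of all 12321 genes were. Among unnumbered ones 10 were higher and 0 lower, where 704 and 728 of all 12587 genes were. Those higher were led by MRPL33 (0.23 ± 0.06 SE, adjusted p 0.00156), MRPL15 (0.21), MRPL49 (0.20), MRPL32 (0.20), MRPL21 (0.19) and MRPL27 (0.19), all of the large mitochondrial subunit. The preset members MRPL45 (0.18 ± 0.06 SE, adjusted p 0.0158) and MRPL58 (0.15 ± 0.05 SE, adjusted p 0.0239) were also higher in this edgeR fit. The MRPL45 call was lost with numbered libraries alone, and that of MRPL58 in 4 of 6 alternatives. The 4 lower were MRPS6, MRPL37 (−0.27), MRPS15 (−0.15) and MRPL23 (−0.14). MRPL37 is a mitochondria-specific large-subunit protein, and its difference (SE 0.05, adjusted p 0.000123) was one of footprints alone. Its unnumbered footprint ratios had −1.04, −0.37 and 0.08 for large-subunit targets and −0.99, −0.13 and 0.16 for small-subunit targets, while the mRNA medians were −0.03 and −0.10. In the numbered libraries the footprint values were −0.71, −0.56 and −0.20 against −0.19, −0.07 and 0.24, with no overlap. By comparison 57 of 77 cytosolic ribosomal protein genes were lower and 3 higher in the same fit, with a median of −0.45. MRPL49 had −0.04 with numbered libraries alone, so its direction was not kept.

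TE differed between large- and small-subunit targets for 5 members in edgeR, 2 higher (1.15% of all genes) and 3 lower (2.43% of all genes). MRPS27 was lowest at −0.46 ± 0.08 (SE, adjusted p 1.34e-06). Its unnumbered TE ratios had −0.76, −0.29 and 0.12 for large-subunit targets, with 3 of 40 above 0, and −0.36, 0.20 and 0.44 for small-subunit targets, with 15 of 19 above 0. The numbered values were −0.63, −0.58 and −0.13 against −0.19, −0.00 and 0.34, which overlap at 1 end only. Its footprints themselves barely differed, with unnumbered medians of 0.02 and −0.00, so the TE difference was one of mRNA level.

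MRPL37 had a TE difference of −0.35 ± 0.07 (SE, adjusted p 0.000114) and MRPL45 one of −0.27 ± 0.07 (SE, adjusted p 0.0104). TE was higher for MRPL21 (0.24 ± 0.06 SE, adjusted p 0.00191) and MRPS5 (0.20 ± 0.06 SE, adjusted p 0.0174), both with bacterial counterparts. MRPS27 and MRPL37 passed in each kind of title alone. Over all genes 18 were higher and 83 lower of 12124 with numbers, and 61 and 210 of 12308 without. With the lysate as a replicate block 17 members passed, 10 higher (8.24% of all genes) and 7 lower (8.05% of all genes), and these include all 5. Of the 77 cytosolic ribosomal protein genes 60 had lower TE with large-subunit targets, with a median of −0.75. For the preset members not yet given, MRPL44, an RNase III-like protein, was higher with large-subunit targets in footprints (0.13 ± 0.05 SE, adjusted p 0.042), a call lost in 3 of 6 alternatives (largest adjusted p 0.472), and MRPS30 and MRPS18A passed in no pooled comparison.

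Since a pyrimidine tract at the transcript start is the known mark of cytosolic ribosomal protein mRNAs, the bases around the annotated start were read from the RefSeq promoter table (GRCh38.p14), at the first start listed for a gene; the table holds 70 members and 63 cytosolic ribosomal protein genes. The members shown are the 4 with the clearest subunit difference and MRPL14 and MRPL34, which fell in the pooled comparison, and 3 cytosolic genes stand for comparison; all were chosen after their values were seen. Each line runs 5′ to 3′ on the strand of the gene. Capitals begin at the first C within 5 bases of the annotated start that at least 4 further C or T follow. They mark the run from there on, up to the end of the line at most. Bases before that C stay in lower case, also where they are C or T, as at RPL29 and RPL13A.
MRPS27, chr5:72320221-72320250, minus strand: gttggctgttCCTTTTggtacgctccaaga
MRPL45, chr17:38297158-38297187, plus strand: ttcccggcggCCTTTgcgggaacaagatgg
MRPL37, chr1:54200157-54200186, plus strand: ggcgcccggtctcattcgttcccagcaggc
MRPS6, chr21:34073568-34073597, plus strand: ctcggaccgtgCTTTCgccgcctgggagcc
MRPL14, chr6:44127289-44127318, minus strand: ttaagtcctcattCCCTCCTTCTCCTCTTC
MRPL34, chr19:17292563-17292592, plus strand: cggcccgcccaggtggtctgcgctgcagac
RPL29, chr3:51995876-51995905, minus strand: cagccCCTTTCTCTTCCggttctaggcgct
RPS3, chr11:75399508-75399537, plus strand: cgagccaCTTCCTTTCCTTTCagcggagcg
RPL13A, chr19:49487598-49487627, plus strand: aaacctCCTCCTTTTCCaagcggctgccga

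Such a run was found at 15 of 70 members (21.4%), 51 of 63 cytosolic ribosomal protein genes (81.0%) and 22.7% of the 9809 other tested genes. Over all 27305 promoters in the table the share was 21.1%. MRPS27, MRPL45 and MRPS6 have short runs, MRPL37 none, and MRPL14 the longest marked among the members. Its run has at least 17 bases, since it reaches the end of the line. Of the 15 members with a run, 2 were called lower in TE with large-subunit targets (MRPS27 and MRPL45) and 0 higher. Of the 55 without, 1 was lower and 1 higher, and over all genes 2.43% were lower and 1.15% higher. The TE differences ran from −0.46 to 0.23 with a run, with a median of 0.01. Without a run the median was 0.05. Cytosolic ribosomal protein genes had −0.79 with a run (50 genes) and −0.72 without (11 genes). The plot of tract and TE difference shows both groups of members around 0.

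**Figure D4:**
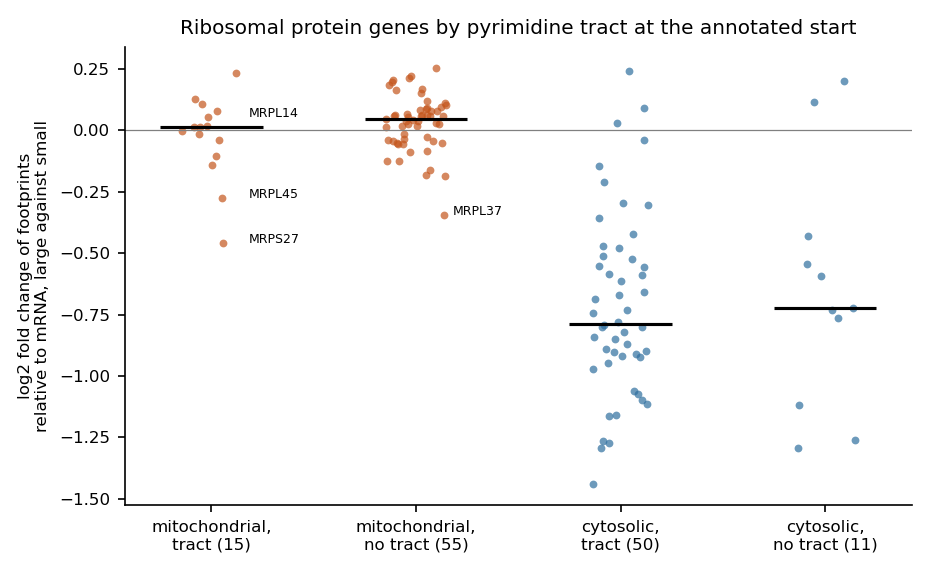
TE log2 difference between large- and small-subunit targets (vertical), 1 point per gene with a black line at the median, for mitochondrial and cytosolic ribosomal protein genes with and without a pyrimidine run at the annotated start. Member medians are 0.01 with a run and 0.05 without, and the cytosolic medians are −0.79 and −0.72.

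Of motifs searched on both strands of the 300-base windows, the ETS core CCGGAAG was in 41.4% of members, 33.3% of cytosolic ribosomal protein genes and 10.7% of all promoters. The YY1 core AAGATGG was in 32.9%, 14.3% and 6.06%. The core bound by NRF1 was in 1.43%, 1.59% and 1.36%, CCAAT in 28.6%, 33.3% and 35.7%, and TATAAA in 4.29%, 7.94% and 11.95%. In other tested genes the ETS core was in 19.6% and the YY1 core in 7.46%. There the NRF1 core was in 2.3%, CCAAT in 36.8% and TATAAA in 5.27%, the last near the share of members. These are matches of letters in a window.

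Large changes of single members were rare. Of the 5850 combinations of member and target, 35 were at least 2-fold lower in mRNA (0.598%) and 2 at least 2-fold higher (0.0342%). In footprints 38 were lower (0.650%) and 4 higher (0.0684%). Over the pairs of all tested genes with all targets the shares were 2.96% and 1.44% in mRNA and 5.36% and 3.37% in footprints. Both assays passed in the same direction for 18 lower pairs, from 14 genes and 15 targets, and for 2 higher pairs. The 18 are 51.4% of the members' lower mRNA pairs and 47.4% of their lower footprint pairs, where genes of like level had 71.6% and 54.6%. The plot of 5 members in every library sets single targets beside all controls and all other knockdowns.

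**Figure D5:**
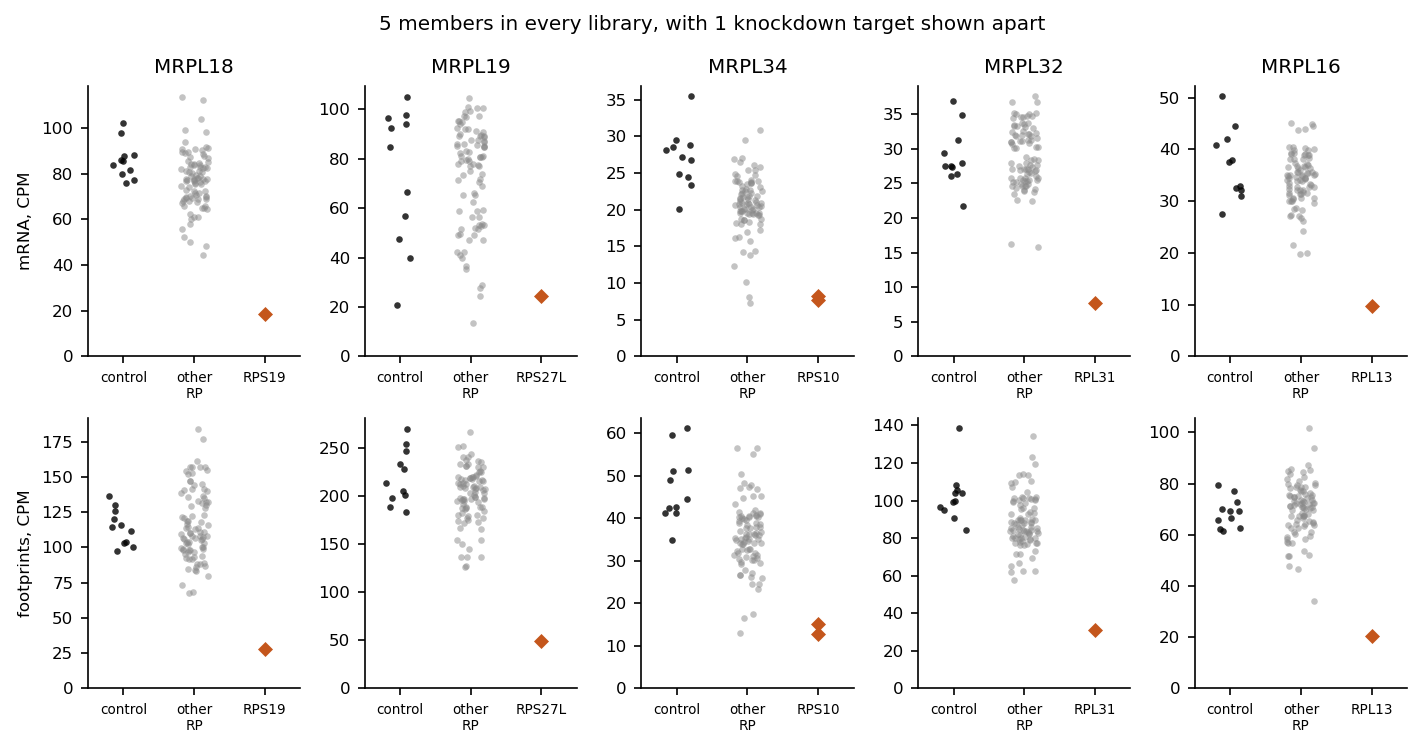
CPM (vertical, from 0) of 5 members in every mRNA (top) and footprint (bottom) library, with controls, all other knockdowns and 1 named target as separate columns of points. MRPL18 with RPS19 depleted lies at 18.5 CPM in mRNA, below the 44.3 to 114 CPM of the other knockdowns.

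MRPL34 with RPS10 depleted had 8.28 and 7.72 CPM in mRNA against 27.2, 28.7 and 35.5 CPM in controls (−1.89 ± 0.12 SE, adjusted p 1.68e-12). Its footprints had 12.7 and 15.04 CPM against 41.2, 50.1 and 61.2 CPM (−1.87 ± 0.19 SE, adjusted p 2.39e-09). This gene was low in other knockdowns too, with mRNA at 7.29 CPM after RPL7A and 8.07 CPM after RPS19 depletion, and footprints at 16.5 and 13.1 CPM.

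The pairs that follow come from targets with 1 library each and have no replicate check. MRPL18, a large-subunit protein, had 18.5 CPM in mRNA with RPS19 depleted against 83.9, 86.0 and 88.1 CPM in controls and 44.3 to 114 CPM in other knockdowns. Its footprints there had 27.6 CPM against 111, 126 and 137 CPM. MRPL32, a large-subunit protein that a mitochondrial protease matures, had 7.65 CPM in mRNA with RPL31 depleted against 26.3, 27.5 and 31.3 CPM, and footprints of 30.9 CPM against 84.5, 99.6 and 139 CPM. Each of these values was the lowest among the knockdowns and the matching controls.

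MRPL16, with a bacterial counterpart in the large subunit, had 9.72 CPM in mRNA with RPL13 depleted against 32.2, 32.9 and 40.8 CPM, and footprints of 20.6 CPM against 62.1, 69.4 and 77.1 CPM. MRPS18A had 7.18 CPM in mRNA with RPL36 depleted against 21.5, 24.3 and 31.8 CPM, and footprints of 17.9 CPM. MRPL9 had footprints of 26.4 CPM with RPL18 depleted against 67.8, 77.0 and 84.98 CPM, and 14.9 CPM in mRNA. All 3 are proteins of the large subunit, low in both assays in these libraries.

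MRPL45 footprints had 19.6 CPM with RPS27 depleted against 59.4, 70.6 and 71.5 CPM, and 42.9 to 104 CPM in other knockdowns. In that footprint library 23.4% of all genes and 7 of the 78 members were past 2-fold, which for mRNA of the same target was 1.84% and 2 members. MRPL19, a large-subunit protein, had 24.5 CPM in mRNA with RPS27L depleted against 66.7, 94.1 and 105 CPM, and footprints of 49.3 CPM against 201, 228 and 248 CPM. Its mRNA was also low with RPS15 depleted (13.5 and 24.5 CPM) and in control 20_2 (20.96 CPM). Footprints with RPS15 depleted were lower too, with 136 and 136 CPM against 184, 202 and 270 CPM in numbered controls. Their log2 ratio was −0.67, beside −1.67 in mRNA. The 2 pairs that were higher in both assays were MRPL39 with RPL8 depleted (63.6 CPM in mRNA and 215 CPM in footprints) and with RPL17 depleted (59.1 and 213 CPM). Controls had 24.2, 26.6 and 29.5 CPM in mRNA and 68.9, 103 and 121 CPM in footprints.

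The 16 targets with 2 libraries were each tested against the 6 numbered controls, so these comparisons share their controls and their values stand side by side. Summed over targets there were 232 member calls in mRNA, 86 higher and 146 lower, and 304 in footprints, 102 higher and 202 lower. The number of calls rests on the controls: without control 20_2 there were 355 in mRNA, without controls 21_1 and 21_2 there were 489 and 469, and with 1 library per target 4 and 4 in mRNA and 22 and 34 in footprints. Calls over all genes are not given for these alternatives, so the changes cannot be read as particular to the members. With all libraries in the fit, the share of members called was below that of all genes for 14 of 16 targets in mRNA and 12 of 16 in footprints.

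RPS16 knockdown gave 30 calls in mRNA, 10 higher and 20 lower (29.6% of all genes), and 27 in footprints, 13 higher and 14 lower (33.4%). RPS3 knockdown gave 2 higher and 13 lower in mRNA (25.6%) and 13 higher and 14 lower in footprints (37.7%). MRPS18B, one of several related proteins of its family in the mitochondrial ribosome, fell in both. Its mRNA had 42.0 and 41.4 CPM with RPS16 and 47.9 and 49.4 CPM with RPS3 depleted, against 69.9, 101 and 162 CPM in the shared controls. The controls 21_1 and 21_2, which share a run of columns with 1 of the RPS16 libraries, had the lower values of 69.9 and 77.2 CPM. The fitted log2 fold changes were −1.33 ± 0.18 and −1.11 ± 0.18 (SE, larger adjusted p 2.24e-05). Its footprints fell less, by 0.74 and 0.71 on the log2 scale. MRPL51, a mitochondria-specific large-subunit protein, fell with RPS3 depleted to 53.8 and 54.7 CPM in mRNA against 89.6, 110 and 149 CPM (−1.05 ± 0.14 SE, adjusted p 8.86e-07).

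RPS15 knockdown gave 4 higher and 13 lower in mRNA (36.6% of all genes) and 2 higher and 19 lower in footprints (22.5%). MRPL50, a mitochondria-specific large-subunit protein, had 9.80 and 14.3 CPM in mRNA against 14.7, 31.6 and 50.1 CPM (−1.52 ± 0.31 SE, adjusted p 0.000467), and footprints of 30.7 and 33.7 CPM against 48.8, 59.0 and 102 CPM (−1.13 ± 0.20 SE, adjusted p 8.45e-05). RPS9 knockdown gave 7 higher and 12 lower in mRNA (25.5%) and 7 higher and 11 lower in footprints (30.5%). MRPL34 fell there in both assays (−1.05 ± 0.11 and −0.92 ± 0.17 SE), and MRPL57 fell more in footprints (−1.03 ± 0.20 SE, adjusted p 0.000151) than in mRNA (−0.37 ± 0.11 SE, adjusted p 0.0136). RPL29 knockdown changed the fewest genes, with 0 higher and 5 lower members in mRNA (11.3% of all genes) and 2 higher and 7 lower in footprints (11.6%). MRPS12 led, with 57.4 and 52.2 CPM in mRNA against 83.6, 107 and 186 CPM (−1.10 ± 0.19 SE, adjusted p 0.000198).

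The other large-subunit targets were RPL15, with 9 higher and 12 lower members in mRNA (35.5% of all genes) and 8 and 17 in footprints (37.6%), RPL21, with 6 and 15 (35.4%) and 6 and 22 (36.2%), and RPL24, with 8 and 6 (27.7%) and 10 and 11 (29.5%). MRPL45 mRNA rose with RPL21 depleted, to 104 and 110 CPM against 65.1, 74.7 and 82.0 CPM (0.53 ± 0.07 SE, adjusted p 1.45e-06). Its footprints there had 69.0 and 71.2 CPM against 45.1, 54.7 and 68.9 CPM (0.29 ± 0.12 SE, adjusted p 0.0629). RPS10 gave 4 higher and 4 lower in mRNA (18.4%) and 6 and 8 in footprints (22.2%). RPS12 gave 7 and 9 in mRNA (27.7%) and 9 and 15 in footprints (30.6%), and RPS15A 5 and 3 (21%) and 2 and 6 (15.6%). RPS26 gave 2 and 4 in mRNA (18.5%) and 8 and 6 in footprints (23.1%), and RPS7 4 and 2 (18.4%) and 2 and 10 (21.1%). Of the 32 comparisons, RPS16 in mRNA had the widest excess of the member share (38.5%) over that of all genes (29.6%). RPS16 is the only numbered target whose libraries stand outside the first run of columns, which holds 4 of the 6 numbered controls, and the part of the run in its calls was not tested. The genes named beside these targets, other than MRPL34, were picked after their values were seen.

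Lists of genes that work with the mitochondrial ribosome were taken beside the members. Over all genes 13.4% rose and 17.2% fell in mRNA in all knockdowns against control, and 13.2% and 13.5% in footprints. With large-subunit targets 15.2% were higher and 16.4% lower in mRNA, and 1.15% and 2.43% in TE. The lists are short, and their counts were not tested against these shares. Of 16 mitochondrial translation factors, 3 were higher and 1 lower in mRNA with large-subunit targets, and 0 were higher and 2 lower in TE (edgeR). OXA1L, the insertase that receives nascent chains at the tunnel exit, was higher in mRNA (0.52 ± 0.05 SE, adjusted p 3.09e-17) and lower in TE (−0.53 ± 0.06 SE, adjusted p 3.06e-12), the same directions as MRPL45 and MRPS27. The ribosome recycling factor MRRF was higher in mRNA (0.18 ± 0.04 SE) and lower in TE (−0.29 ± 0.07 SE). In all knockdowns against control 1 translation factor rose in mRNA, and 1 rose and 1 fell in footprints. Of 26 assembly factors, 2 rose and 7 fell in footprints in all knockdowns against control, among them MALSU1 (−0.40), DHX30 (−0.33), FASTKD2 (−0.35) and MPV17L2 (−0.47), which fell, and RCC1L (0.53) and NSUN4 (0.36), which rose. In mRNA 1 assembly factor rose and 4 fell, and with large-subunit targets 0 were higher and 2 lower in TE, NOA1 (−0.38) and RPUSD4 (−0.28). Of 17 mitochondrial tRNA synthetases, 4 rose in footprints, led by AARS2 (0.52) and PARS2 (0.51), and 3 fell.

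The 13 mRNAs that mitochondrial DNA encodes are the templates of this ribosome. Of these, MT-CO1 (0.39), MT-CO2 (0.41) and MT-CO3 (0.38), subunits of cytochrome c oxidase, rose in footprints in all knockdowns against control (13.2% of all genes did). The list median was 0.30, and 0 changed in mRNA in edgeR, also at an unadjusted p under 0.05. In TE 0 of the 13 were called by edgeR in the same comparison. MT-CO1 (0.24), MT-CO2 (0.35) and MT-CO3 (0.25) each had an adjusted p of 0.999 there. Cycloheximide, which was used to hold ribosomes on mRNA, arrests cytosolic and not mitochondrial ribosomes. Of the 5 mitochondrial ribosomal proteins with other symbols, DAP3 rose (0.21) and AURKAIP1 fell (−0.21) in mRNA. Of all genes 13.4% rose and 17.2% fell there.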

How the data were processed

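A549 cells were profiled by RNA sequencing and ribosome profiling after siRNA knockdown. The authors deposited 1 table of raw read counts per gene for each assay, named as exon counts for the RNA and coding-sequence counts for the footprints, so TE sets different stretches of a transcript against each other. STAR 2.6.1 with cutadapt 1.8.1 and bcl2fastq 2.20.0.422, and the build GRCh38, are listed in the submitters' processing notes. The counting program, its strand setting and the annotation are all not given in the sources used here, so reads shared with pseudogenes or antisense genes cannot be told apart. Columns were matched to samples by title. The RPS15 mRNA columns carry another sample number than their titles and were matched by target and replicate number. Columns of controls 21_1 and 21_2 name the control group only.

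A gene was kept if 11 libraries or more had 1 CPM or more. edgeR 4.0.16 (R 4.3.3) quasi-likelihood tests with TMM scaling ran on the counts of all kept genes, with title set (numbered or not) as a term, and Benjamini-Hochberg adjustment with a threshold of 0.05. For TE, the term of interest was assay by group in 1 model. Log2 ratios used CPM plus 0.5. As each lysate gave both libraries by the labels' protocol, a paired fit (limma 3.58.1) was also made; footprint and mRNA deviations of a lysate had a median correlation of 0.131 over 43 lysates with replicates, above 0.1 in 58.1% of them.

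The members and gene lists were chosen with earlier results of these data known. The text names, in each pooled comparison, up to 6 members with the largest called change each way; the 6 pairs of member and target per assay farthest from the member's median; a preset group (MRPL10, MRPL12, MRPL44, MRPL45, MRPL58, MRPS12, MRPS18A, MRPS27 and MRPS30); the 4 targets with the lowest and highest medians; and the 16 targets with 2 libraries. Footprint density per coding length was not analysed here. Results of some single targets are not reported here; their libraries stay in the fits and totals. On simulated data with 100 genes changed by 0.5 and 100 by 1 on the log2 scale, the test of all knockdowns recovered 79% and 97% in mRNA, 65% and 90% in footprints and 34% and 81% in TE, with 15421, 12740 and 12442 genes; that of 1 target with 2 libraries recovered 18% and 67% in mRNA (15327 genes). Alternatives covered scaling, the count filter, DESeq2 1.42.0, the control set, the title set, left-out libraries, the replicate number and the lysate as a replicate block.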

Additional observations from a re-analysis of the deposited data

Results flagged for a closer look

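In control libraries of 1 kind of title, 14 of 170 groups of values held a sample far from the others by Dixon's test at the 95% level, at which chance alone is set to mark 5%. Of the 14, 6 are mRNA values of control 20_2, each the highest of its group. MRPL2 had 56.3 CPM, MRPL28 had 102 CPM and MRPL34 had 35.5 CPM in that library. MRPL58 had 51.5 CPM, MRPS15 had 89.4 CPM and MRPS27 had 143 CPM there. This control also had the highest member median of the control libraries in mRNA, 0.35 on the log2 scale. It lies in the group against which the 16 targets with 2 libraries were tested. MRPL24 mRNA had 63.3 CPM in control 3.

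Among the footprint values 3 genes stood off in control 1 with the lowest level, MRPL15 (164 CPM), MRPL33 (214 CPM) and MRPS6 (25.6 CPM), and MRPL44 had 94.6 CPM there. Control 9 held the outlying footprint values of MRPL11 (99.6 CPM) and MRPS15 (80.2 CPM). MRPS18B footprints had 150 CPM in control 3. The part of these libraries in the comparisons was not tested beyond leaving each control out in turn.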

How the results depend on the processing

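Pooled counts were mostly lower with each kind of title fitted alone. Numbered and unnumbered libraries alone called 6 and 5 members for all knockdowns in mRNA (22 over both), 12 and 0 in footprints (20) and 2 and 2 for TE between subunits (5). Between subunits numbered libraries alone called 5 in mRNA (21 over both) and 9 in footprints (15 over both, of which 5 are among the 9), where MRPL39 in mRNA and MRPL49 in footprints reversed (−0.0288 and −0.0377). Without the title-set term 36, 42 and 15 members were called between subunits in mRNA, footprints and TE. Over all genes those fits called 3448 higher and 3800 lower of 15526, 2360 and 2417 of 12793, and 517 and 504 of 12480. The replicate block, which pairs both assays of a lysate, gave 2 TE calls for all knockdowns and 17 between subunits. Within 1 assay the replicate number of the title was the term instead, with no pairing of assays. That fit gave 29 and 16 for all knockdowns in mRNA and footprints. Over all genes it called 2311 higher and 2695 lower of 15526 in mRNA, and 1507 and 1314 of 12793 in footprints. Calls over the 16 targets went from 232 in mRNA to 355 without control 20_2 and 489 without controls 21_1 and 21_2, and from 304 to 469 in footprints without the latter; 1 library per target left 4 to 4 and 22 to 34. Leaving out 1 control at a time gave 17 to 23 pooled calls in mRNA and 17 to 23 in footprints. For the alternatives over the 16 targets, calls over all genes are not given, so those changes cannot be read as particular to the members. The cause of the changes in these counts was not tested.

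Member medians over targets moved by more than the spread between libraries in some settings. In mRNA (−0.00) they were −0.0645 with all 11 controls and −0.048 with numbered libraries. Footprints (−0.05) gave −0.00273 with library totals, −0.0141 with all 11 controls, −0.0983 with numbered libraries and −0.0177 with controls of the same run of columns. TE (−0.03) gave 0.0125 with library totals and 0.054 with all 11 controls. The difference from cytosolic genes (0.02 in mRNA, 0.20 in footprints, 0.18 in TE) was 0.0834, −0.127 and −0.323 with numbered and −0.0466, 0.277 and 0.365 with unnumbered libraries.

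Of 1217 values for single members under alternatives, 1119 kept direction and side of the threshold, 91 lost significance, 5 gained it and 2 reversed. Alternatives on runs of columns, on controls 21_1 and 21_2 and on scaling of medians by RLE or without cytosolic genes were chosen after seeing the data. With 2 libraries of a target, most simulated mRNA changes of 0.5 on the log2 scale were missed (18% recovered), so an uncalled member may still have changed.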
